A study of Mus musculus with 6 samples.

Results

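Cells with messages of an inflammatory macrophage programme were chosen among CD169-lineage cells of the mouse lymph node. The gate used raw counts of unique molecular identifiers (UMIs, 1 for each captured mRNA molecule), and a cell entered it when at least 3 of the 6 genes Nos2, Acod1, Saa3, Ptgs2, Inhba and Slc7a2 were detected. It held 518 of 12139 kept cells. These cells are called gated cells here, and the other 11621 kept cells are called other cells.

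All mice were Cd169Cre/+ Tdtomato fl/fl. In such mice the red protein Tomato labels cells in whose lineage Siglec1, the gene for CD169, was once active. The label stays whether or not the cell still makes CD169. The 2 immunized mice received hen egg lysozyme (HEL) and their lymph nodes were taken 9 days later, and the 2 unimmunized mice carried the same alleles. The study's methods describe HEL joined to an ovalbumin peptide, injected in Sigma Adjuvant System into recipients of HEL-binding B cells and OT-II T cells. For the sequenced mice those methods name no antigen, adjuvant or cell transfer. Cells were marked with 1 hashtag antibody per mouse and with 6 further antibodies, and Tomato-positive cells high in CD11b were then sorted, pooled and split over 2 10X captures. The kept cells numbered 2828 and 537 in unimmunized mice 1 and 2, and 4052 and 4722 in immunized mice 1 and 2.

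Gated cells came almost wholly from 1 animal. They numbered 3 and 0 in unimmunized mice 1 and 2, 24 in immunized mouse 1 and 491 in immunized mouse 2. Levels below are therefore given for each immunized mouse, and the main counts also with each mouse left out. Counts over gene lists come from fits that hold both mice. Summed UMIs of gated cells were 335106 in immunized mouse 1 and 8112873 in immunized mouse 2, so values of immunized mouse 1 are the less precise.

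Macrophages exposed to microbial products and interferon-gamma are known to turn on enzymes and secreted proteins in a concerted way. Nos2 encodes inducible nitric oxide synthase, which makes nitric oxide from arginine, and Slc7a2 encodes a transporter that brings arginine into the cell. Acod1 encodes the mitochondrial enzyme that makes itaconate, Ptgs2 encodes cyclooxygenase for prostaglandin synthesis, Saa3 encodes an acute phase serum amyloid A protein, and Inhba encodes the subunit of activin A. In lymph nodes, resident macrophages sit beside monocytes that enter from blood and can take on such a programme.

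The gate genes lie on different chromosomes of GRCm38, and all are protein coding. Nos2 spans chr11:78920787-78960254 on the plus strand, Acod1 chr14:103046977-103056573 (plus), Saa3 chr7:46711998-46715700 (minus), Ptgs2 chr1:150100031-150108227 (plus), Inhba chr13:16011851-16031621 (plus) and Slc7a2 chr8:40862396-40922308 (plus). RefSeq promoter sequences on GRCm38.p6 matched 4 of the 6 gate genes. They are printed 5′ to 3′ on the gene's strand, together with those of Clec4e and Slc7a11, genes outside the gate that were among the highest in gated cells, because these genes were high in the same cells. Each run ends before the annotated gene start, and capitals mark the letters matched by a motif described after the sequences.
Acod1, chr14:103046762-103046976, plus strand: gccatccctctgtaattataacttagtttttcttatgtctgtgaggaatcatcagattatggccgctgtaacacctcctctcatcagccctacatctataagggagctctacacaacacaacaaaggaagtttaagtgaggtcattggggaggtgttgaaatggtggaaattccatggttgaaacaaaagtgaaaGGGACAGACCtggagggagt
Saa3, chr7:46715701-46715926, minus strand: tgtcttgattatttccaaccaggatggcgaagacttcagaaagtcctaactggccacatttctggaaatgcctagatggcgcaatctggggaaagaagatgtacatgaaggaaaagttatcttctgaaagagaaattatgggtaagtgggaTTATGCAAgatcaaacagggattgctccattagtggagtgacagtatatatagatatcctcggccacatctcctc
Ptgs2, chr1:150099781-150100030, plus strand: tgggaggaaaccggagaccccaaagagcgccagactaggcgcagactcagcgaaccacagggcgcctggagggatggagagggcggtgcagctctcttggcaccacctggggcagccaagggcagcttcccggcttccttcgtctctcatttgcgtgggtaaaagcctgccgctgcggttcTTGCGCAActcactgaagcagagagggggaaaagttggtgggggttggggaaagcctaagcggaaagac
Inhba, chr13:16011601-16011850, plus strand: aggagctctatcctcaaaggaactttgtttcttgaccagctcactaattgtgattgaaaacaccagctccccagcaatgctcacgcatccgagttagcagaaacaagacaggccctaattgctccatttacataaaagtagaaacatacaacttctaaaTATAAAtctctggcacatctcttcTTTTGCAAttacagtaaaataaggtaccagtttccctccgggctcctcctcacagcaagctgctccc
Clec4e, chr6:123289872-123290121, minus strand: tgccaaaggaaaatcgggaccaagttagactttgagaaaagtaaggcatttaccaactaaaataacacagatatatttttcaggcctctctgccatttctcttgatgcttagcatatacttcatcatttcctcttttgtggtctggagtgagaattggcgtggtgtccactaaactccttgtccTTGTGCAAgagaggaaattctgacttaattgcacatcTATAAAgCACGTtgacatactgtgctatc
Slc7a11, chr3:50443615-50443863, minus strand: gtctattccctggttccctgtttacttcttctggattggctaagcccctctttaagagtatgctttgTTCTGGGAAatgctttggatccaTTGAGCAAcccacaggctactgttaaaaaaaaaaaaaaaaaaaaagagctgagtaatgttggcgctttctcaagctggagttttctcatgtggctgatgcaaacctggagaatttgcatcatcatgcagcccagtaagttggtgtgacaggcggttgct

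In all, 8 motifs were searched on both strands of the 250 bases before each of 27025 RefSeq gene starts. C/EBP letters (TTGCNNAA) were present in the promoters of Saa3, Ptgs2, Inhba, Clec4e and Slc7a11 and in 9.55% of all promoters. In Ptgs2 the match reads alike on both strands. NF-kappaB letters (GGGA, then 4 bases of any kind, then CC), in 17.3% of all promoters, matched only Acod1 among these 6, at bases 55 to 46 before its RefSeq start. A TATA box (TATAAA, 13% of all promoters) was matched in Acod1, Inhba and Clec4e, the hypoxia response letters (ACGTG, 16.6%) in Acod1 and Clec4e, and GAS letters (TTCNNNGAA, 7.18%) in Slc7a11. For Acod1 the TATAAA and ACGTG matches lie in the 35 bases nearest the RefSeq start, which are not printed. AP-1 letters (TGANTCA, 6.87%), ACGTCA (6.56%) and antioxidant response letters (TGACNNNGC, 10.1%) matched none of the 6. The matches in these 6 promoters did not overlap each other. These matches describe letters in a window and were chosen with the sequences in view.

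The share of kept cells in the gate was 0.106% (95% exact binomial interval 0.0219 to 0.310) and 0% (0 to 0.685) in unimmunized mice 1 and 2. It was 0.592% (0.380 to 0.880) in immunized mouse 1 and 10.4% (9.54 to 11.3) in immunized mouse 2. Both immunized mice were above both unimmunized mice, but immunized mouse 1 lay far closer to them than to immunized mouse 2. The mean share was 5.50% in immunized and 0.0530% in unimmunized mice, a difference of 5.44 percentage points with a two-sided exact permutation p = 0.333, the smallest that 2 mice against 2 can give. Without immunized mouse 2 the difference was 0.539 points. Intervals cover counting error only.

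The gate counts detected genes, so deeper cells enter it more readily. Median UMIs per cell were 5874 and 6280 in other cells of the unimmunized mice, against 9666 and 12455 in those of immunized mice 1 and 2. After each cell was thinned to 2000 UMIs, 0 of 2522 and 0 of 509 cells of the unimmunized mice, 6 of 3935 (0.152%) cells of immunized mouse 1 and 128 of 4682 (2.73%) of immunized mouse 2 passed. Unthinned, the same cells gave 0.119%, 0%, 0.610% and 10.5%. The order of the mice was kept after thinning, with the unimmunized mice both at 0. The 2 captures gave like shares, 10.9% and 9.82% in immunized mouse 2 and 0.519% and 0.673% in immunized mouse 1.

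Cells just inside the threshold were the most numerous of the gate. With exactly 3 gate genes there were 21 cells in immunized mouse 1 and 267 in immunized mouse 2, and with exactly 2 there were 149 and 647. With 4, 5 and 6 gate genes there were 136, 61 and 27 cells in immunized mouse 2, against 2, 1 and 0 in immunized mouse 1. No gap separated gated cells from the rest.

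**Figure D1:**
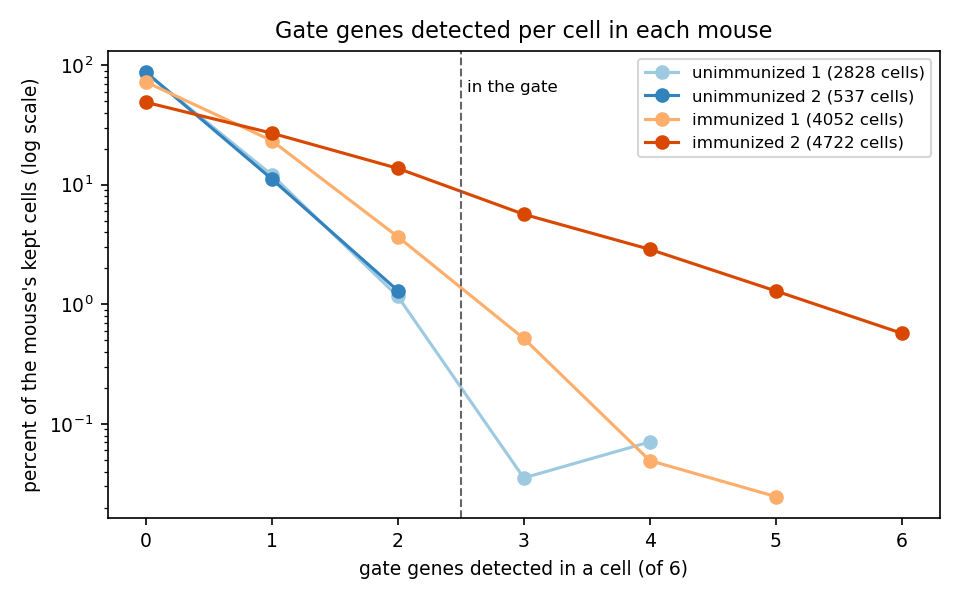
Percent of kept cells (log axis) by the number of the 6 gate genes detected, for each of the 4 mice; the dashed line marks the gate. Immunized mouse 2 lies above the other mice from 1 gene on and is the only mouse with cells that have all 6.

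Since the 6 genes chose the cells, their levels are a description. Acod1 was detected in 100% and 93.5% of gated cells of immunized mice 1 and 2, and Saa3 in 91.7% and 86.8%. Ptgs2 was detected in 58.3% and 78.2%, Nos2 in 25% and 53.8%, Slc7a2 in 25% and 36.0%, and Inhba in 16.7% and 20.8%. The gate was thus carried by Acod1 and Saa3, and most gated cells of immunized mouse 1 had no Nos2 UMI. The most frequent combination in both mice was Acod1, Saa3 and Ptgs2, in 10 of 24 and 124 of 491 gated cells. All 6 genes were detected in 27 cells of immunized mouse 2.

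In summed counts per 1000000 UMIs of the class and mouse (CPM), Saa3 stood at 4282 and 2762 in gated cells of immunized mice 1 and 2, against 199 and 348 in other cells. Acod1 stood at 352 and 377 against 14.6 and 46.9, and Ptgs2 at 122 and 331 against 3.90 and 21.4. Nos2 stood at 20.9 and 154 against 0.362 and 1.30, and the value of immunized mouse 1 rests on 7 UMIs. Slc7a2 stood at 59.7 and 94.9 against 0.362 and 1.11, and Inhba at 29.8 and 30.1 against 0.569 and 0.464. Nos2, Slc7a2 and Inhba were near 0 outside the gate, whereas Acod1 and Saa3 were also present in other cells. Acod1 was detected in 7.62% and 23.8% and Saa3 in 19.9% and 25.1% of other cells of immunized mice 1 and 2. In B cells, which should lack these genes and serve to gauge free RNA, Acod1 was detected in 1.86% and 7.32% and Saa3 in 11.2% and 0% of 161 and 41 cells of immunized mice 1 and 2, at median depths of 7540 and 5603 UMIs. Acod1 stood at 2.08 and 34.7 CPM in these B cells, the latter on 12 UMIs. Nos2 had no UMI in them, while Slc7a2 was detected in 1.24% and 0%, Inhba in 0.621% and 0% and Ptgs2 in 0% and 2.44%. In other cells of immunized mouse 1, Slc7a2 and Inhba were each detected in 0.348%.

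**Figure D2:**
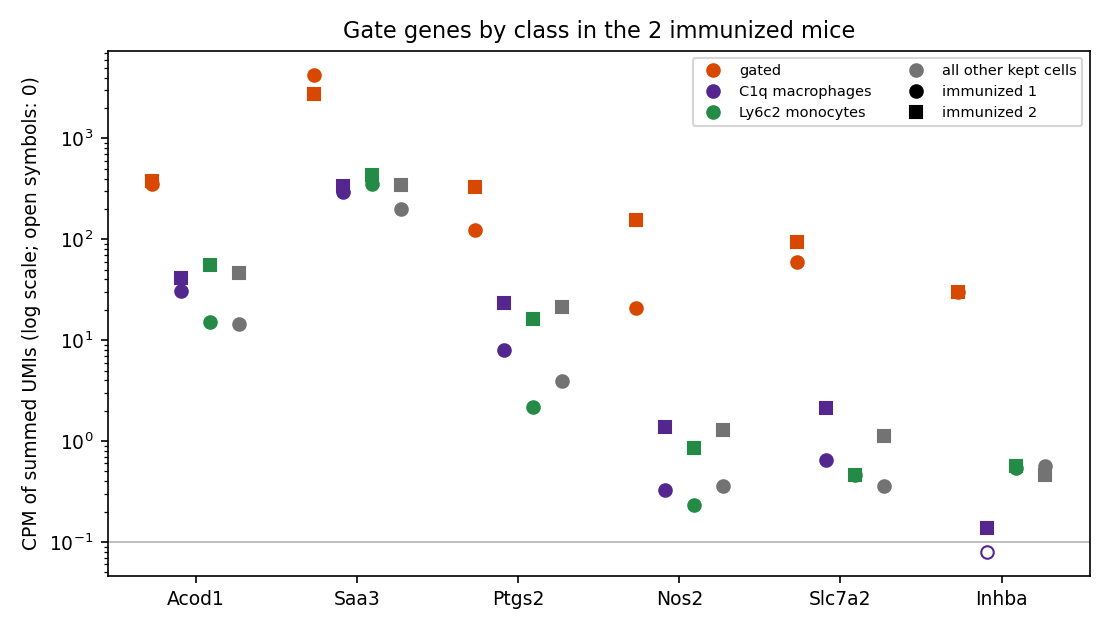
Summed CPM (log axis) of the 6 gate genes in gated cells, other cells, C1q macrophage-like cells and Ly6c2 monocyte-like cells of immunized mice 1 and 2; the open symbol marks a value of 0. Every gate gene is highest in gated cells of both mice, which the gate itself sets.

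To see how far each gene went with the others, each was left out in turn and cells were chosen by at least 3 of the remaining 5. The 6 genes had been proposed together from earlier results of these data, so this describes their co-occurrence. Nos2 was then detected in 44.4% of 408 cells that passed and in 2.99% of 4314 that did not in immunized mouse 2, and in 5.26% of 19 and 0.471% of 4033 in immunized mouse 1, where the former is 1 cell. Slc7a2 was detected in 29.6% against 2.08% in immunized mouse 2 and in 14.3% against 0.422% in immunized mouse 1. Ptgs2 was detected in 65.1% against 13% and in 16.7% against 2.60%. All 6 left-out genes were detected more often in cells that passed, in both mice. On summed counts, the log2 differences were 5.40 ± 1.10 (SE) for Nos2, 5.62 ± 0.72 for Slc7a2, 4.08 ± 0.55 for Inhba, 3.47 ± 1.10 for Ptgs2, 3.55 ± 0.74 for Acod1 and 3.28 ± 0.44 for Saa3, given with no test. For Acod1 and Saa3 only immunized mouse 2 held the 10 cells required of a library. That library was set against cells of both immunized mice that did not pass, so a difference between the mice enters these values. Without immunized mouse 1 they were 2.85 for Acod1 and 2.82 for Saa3.

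The label of macrophage was checked against markers the gate did not use. Csf1r, the receptor for macrophage colony-stimulating factor, was detected in 23 of 24 and 485 of 491 gated cells of immunized mice 1 and 2 (95.8% and 98.8%), against 18.6% and 17.1% of B cells. Lyz2, the lysozyme of myeloid cells, was detected in nearly all cells, B cells included, but its median was 279.5 and 336 UMIs per gated cell and 3 and 4 per B cell. Both marked gated cells as myeloid, as they did the other myeloid cells of the sort, with Csf1r in 70% and 88.9% of other cells. C1qa, C1qb and C1qc, all detected with at least 10 UMIs together, marked 7 of 24 and 204 of 491 gated cells (29.2% and 41.5%), and Ly6c2 and Ccr2, markers of classical monocytes, marked 9 and 231 (37.5% and 47.0%). Both definitions were met by 3 and 77 cells and neither by 11 and 133. The markers thus placed gated cells in no single class, and no further cell type name is given to them. Siglec1 was detected in 6 and 230 gated cells.

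For comparison, C1q macrophage-like cells were taken as non-gated cells that met the C1q definition (526 in immunized mouse 1 and 1431 in immunized mouse 2), and Ly6c2 monocyte-like cells as the remaining cells that met the Ly6c2 definition (1095 and 1335). Their median UMIs per cell were 11545 and 14804, and 11169 and 12367, against 12928.5 and 15683 in gated cells. Depth therefore moved with the gate. In cells of at least 5000 UMIs, the tests described below gave 12 genes higher and 1 lower against other cells (19 and 3 in all kept cells), 95 and 47 against C1q macrophage-like (109 and 40) and 172 and 86 against Ly6c2 monocyte-like cells (171 and 70). C1qb stood at 579 and 1053 CPM in gated cells, 2478 and 2723 in C1q macrophage-like cells and 47.6 and 65.3 in Ly6c2 monocyte-like cells. Gated cells lay between these classes in both mice. Ly6c2 stood at 842 and 487 CPM in gated cells, 424 and 323 in C1q macrophage-like cells and 1559 and 1061 in Ly6c2 monocyte-like cells, and gated cells again lay between. The definitions of the 2 classes set part of this order. Macrophage markers (16 genes) summed to 4079 and 4483 CPM in gated cells, against 9943 and 8888 in C1q macrophage-like and 2271 and 1738 in Ly6c2 monocyte-like cells. In other cells they summed to 3234 and 4598 CPM, below gated cells in immunized mouse 1 and above them in immunized mouse 2. Classical monocyte markers (12 genes) summed to 5733 and 4302 CPM in gated cells and to 6370 and 5643 in other cells. They summed to 4212 and 4251 in C1q macrophage-like and to 11856 and 8839 in Ly6c2 monocyte-like cells. Dendritic cell markers (16 genes) summed to 47364 and 49312 CPM in gated cells, led by Cd74, the invariant chain of MHC class II, while Flt3, Zbtb46 and Cd209a were at 0 in immunized mouse 1. They summed to 41475 and 51994 CPM in other, 56292 and 57757 in C1q macrophage-like and 41789 and 50080.5 in Ly6c2 monocyte-like cells. Cd74 and the MHC class II genes carry these sums. Of the 16 genes, against other cells, none passed the edgeR test described below, with a list median of -1.28. At an unadjusted p under 0.05, which 17% of all genes passed in either direction, 6 were lower. DESeq2 called 3 of the 16 lower (1.17% of all genes) and the fit with the mouse as a block 7 (5.61%). Against C1q macrophage-like cells 1 was lower, Batf3, a transcription factor of dendritic cells (29.8 and 36.5 CPM in gated and 72 and 81.3 in C1q macrophage-like cells, a log2 difference of -1.06 ± 0.20, edgeR adjusted p = 0.0323). DESeq2 called 3 lower and the block 7 (0.723% and 4.3% of all genes, and 0.355% in the edgeR test). Against Ly6c2 monocyte-like cells none was lower, with 2 in DESeq2 and 4 with the block (0.811% and 5.51% of all genes). No dendritic cell marker was called higher in any of these fits. Markers of lymph node sinus macrophages (10 genes) summed to 191 and 181 CPM, led by Vcam1, against 178 and 144 in other, 509 and 191 in C1q macrophage-like and 75.2 and 90.8 in Ly6c2 monocyte-like cells. In the edgeR test 0 of 8, 0 of 7 and 1 of 7 of them were higher against these 3 classes and none lower. With the block 2, 1 and 2 were higher and 3, 3 and 0 lower.

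Markers of other cell types were measured beside these. Neutrophil markers (13 genes) summed to 1024 and 443 CPM in gated cells of immunized mice 1 and 2, against 801 and 262 in other cells, 122 and 140 in C1q macrophage-like cells and 156 and 331 in Ly6c2 monocyte-like cells. The genes with the most UMIs in gated cells were S100a8 (439 CPM) in immunized mouse 1, where 132 of its 147 UMIs were in 1 cell, and S100a9 (158 CPM) in immunized mouse 2, while Ly6g, the defining marker, was at 0 in both. In immunized mouse 2, 1006 of 1243 S100a8 UMIs were in 3 of the 491 gated cells, 882 of them in 1 cell, so that S100a8 rested mostly on a few cells in both mice. T cell markers (12 genes) summed to 319 and 34.0 CPM in gated cells and 381 and 118 in other cells, with Trbc2 the highest in gated cells (68.6 and 8.38 CPM) and Trbc1, Tcrg-C1 and Trdc at 0 in immunized mouse 1. NK cell markers (9 genes) summed to 110 and 22.6 CPM against 426 and 116, led by Nkg7 (62.7) in immunized mouse 1, where Ncr1 and Klrb1c were at 0, and by Gzma (11.1) in immunized mouse 2. B cell markers (11 genes) summed to 382 and 113 CPM against 916 and 212, led by Igkc (194 and 62.1), with Pax5 at 0 in immunized mouse 1. At least 2 of 15 lymphocyte and other lineage markers were detected in 5 of 24 and 47 of 491 gated cells (20.8% and 9.57%), and in 18.0% and 8.91% of other cells. Against other cells none of the neutrophil (13 tested), T cell (12), NK cell (9) or B cell (11) markers passed the edgeR test described below. At an unadjusted p under 0.05, which 17% of all genes passed in either direction, 0, 5, 7 and 4 of these markers were lower and none higher. DESeq2 called 0, 2, 3 and 1 lower (1.17% of all genes). With the mouse as a block 1, 11, 9 and 7 were lower (5.61% of all genes) and 2 neutrophil markers higher (5.08%). Against C1q macrophage-like cells the fitted difference was positive for 9 of 9 neutrophil markers tested, with a list median of 3.55. None passed the edgeR test, and 5 were higher at an unadjusted p under 0.05 (13.6% of all genes in either direction). DESeq2 called 2 higher and the block 6 (1.6% and 7.16% of all genes). Against Ly6c2 monocyte-like cells none of 9 passed, and 1 was higher at an unadjusted p under 0.05 (15.6% of all genes in either direction). DESeq2 called none higher and the block 3 (1.97% and 8.26% of all genes). Gated cells of immunized mouse 1 held more messages of other lineages than those of immunized mouse 2, and their part in the results was not tested apart from leaving those cells out.

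Against other cells of the immunized mice, the largest rises among genes that passed and met the rule for naming were those of Clec4e, AA467197, Ccrl2, F10 and Cd38, while Cebpa and BC035044 fell. Counts were summed per mouse and class and tested by edgeR's quasi-likelihood test at a Benjamini-Hochberg adjusted 0.05 over 12752 genes, the 6 gate genes apart. Of these, 19 genes were higher (0.149%) and 3 lower (0.0235%) in gated cells, and 2174 (17%) had an unadjusted p under 0.05. DESeq2 called 216 higher (2.05%) and 123 lower (1.17%). Pools of the same mouse come from the same animal, and with the mouse as a block 648 genes were higher (5.08%) and 715 lower (5.61%), among them all 22, in a fit with 1 residual degree of freedom. Its p-values therefore rest mostly on spread shared over genes and do not measure the spread between animals. When immunized mouse 2 was left out 173 genes were higher and 73 lower, and 458 and 427 when immunized mouse 1 was. Leaving out either unimmunized mouse gave 0 and 0. The last fits had 1568 and 1609 genes with an unadjusted p under 0.05. When cells with markers of another lineage were left out, 108 genes were higher and 34 lower.

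Clec4e, which encodes Mincle, a lectin receptor for mycobacterial glycolipids and products of dead cells, had the largest of these rises. It stood at 1441 and 727 CPM in gated cells of immunized mice 1 and 2 and at 72.1 and 95.7 in other cells. The log2 difference was 3.68 ± 0.34 (SE, edgeR adjusted p = 0.0294). AA467197 stood at 331 and 290 CPM against 18.1 and 39.5, a log2 difference of 3.43 ± 0.37 (0.0347).

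Further receptors rose with them. Ccrl2, a chemokine-binding receptor that does not signal in the usual way, stood at 188 and 187 CPM against 25.3 and 31.7 (log2 difference 2.74 ± 0.17, edgeR adjusted p = 0.0199). Gpr84, a receptor for medium-chain fatty acids, stood at 119 and 97.6 against 27.2 and 26.7 (1.99 ± 0.20). Fpr2, a formyl peptide receptor that also binds serum amyloid A, stood at 310 and 361 against 77.7 and 112 (1.86 ± 0.21). Tlr2, a receptor for bacterial lipoproteins, stood at 182 and 151 against 53.0 and 62.6 (1.52 ± 0.15). The 2 immunized mice were close to each other for these receptors. Both summed values of gated cells lay above both of other cells, which the choice of genes by size and shared direction favours.

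The text names 11 of the 19 genes that rose, and the rest of those named were of varied roles. F10, coagulation factor X, stood at 245 and 224 CPM against 30.1 and 53.3 (2.5 ± 0.28), and Cd38, an NAD-consuming surface enzyme, at 134 and 190 against 36.4 and 46.9 (2.04 ± 0.22). Malt1, a signalling protease upstream of NF-kappaB, stood at 570 and 377 against 128 and 132 (1.85 ± 0.21), Jun, an AP-1 subunit, at 92.5 and 115 against 29.9 and 34.3 (1.77 ± 0.17), and Slc25a37, a mitochondrial iron importer, at 95.5 and 98.1 against 28.6 and 33.9 (1.66 ± 0.15). Their edgeR adjusted p-values lay between 0.0199 and 0.0424, those of the receptors included.

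Of the 3 genes that fell, 2 met the rule for naming. Cebpa, a transcription factor of myeloid development, stood at 20.9 and 27.1 CPM in gated cells and 80.7 and 72.4 in other cells, a log2 difference of -1.52 ± 0.17 (edgeR adjusted p = 0.0390). BC035044 stood at 5.97 and 7.52 against 46.9 and 38.4 (-2.49 ± 0.22, 0.0294). Both were lower in both mice.

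**Figure D3:**
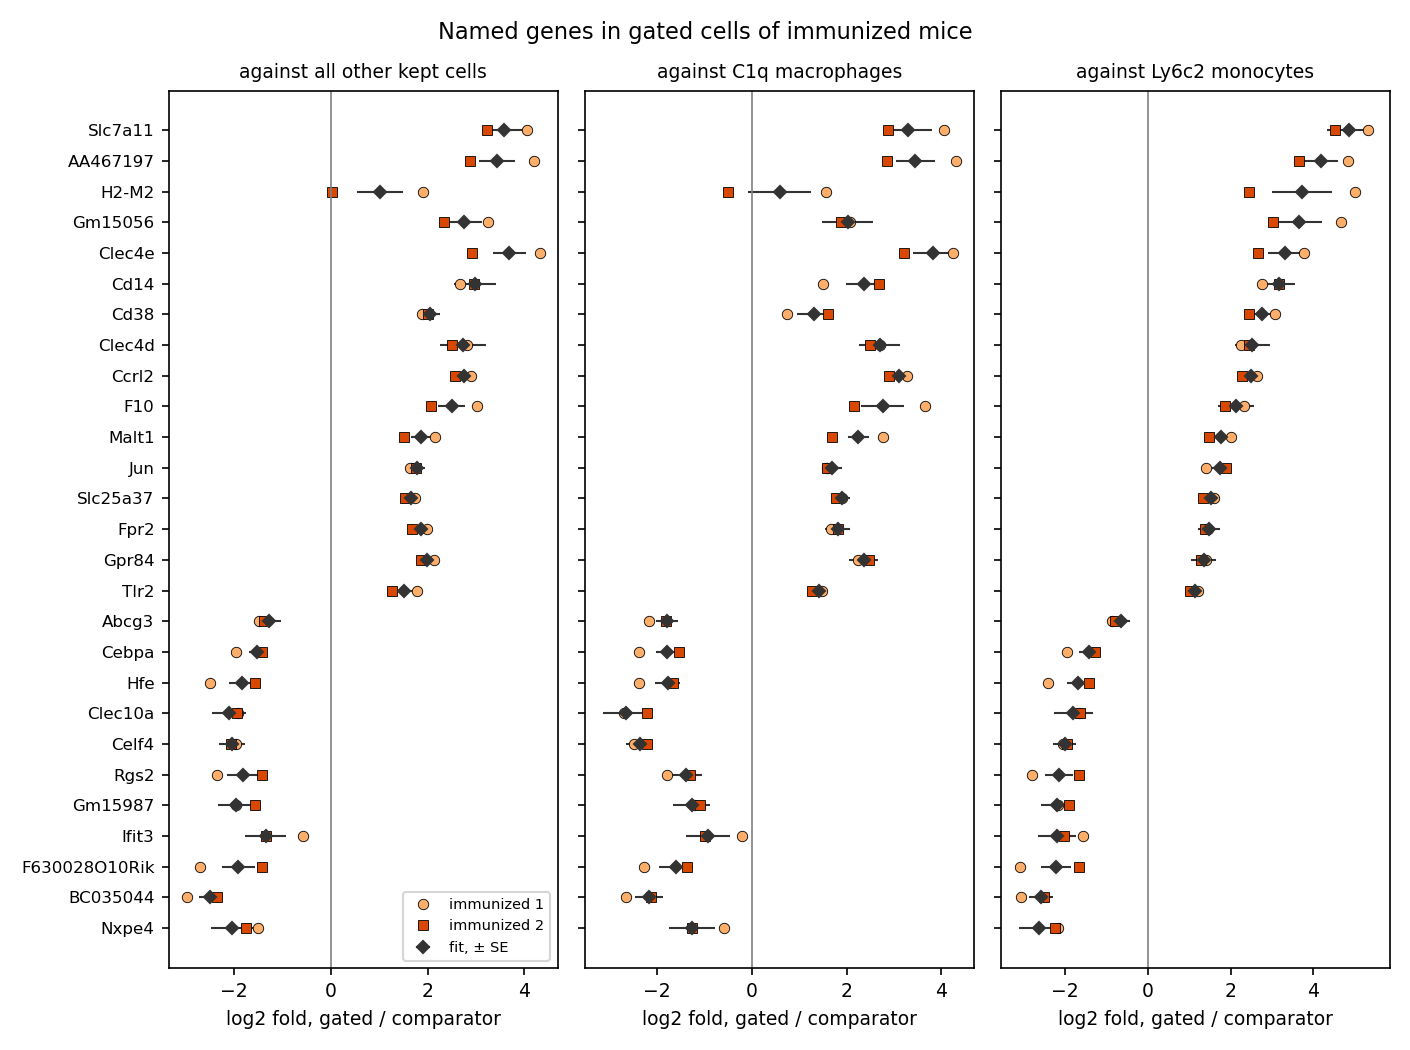
Log2 ratio of gated to other cells for the named genes; circles and squares are raw CPM ratios of immunized mice 1 and 2, and diamonds with bars are the edgeR estimate ± SE. Panels show the comparison with other, C1q macrophage-like and Ly6c2 monocyte-like cells. Genes right of 0 are higher in gated cells; H2-M2 is the gene whose mice lie on both sides of 0, against C1q macrophage-like cells.

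Against C1q macrophage-like cells, 109 of 11276 genes were higher (0.967%) and 40 lower (0.355%) in gated cells, and with the mouse as a block 807 (7.16%) and 485 (4.3%). At an unadjusted p under 0.05 there were 1536 (13.6%), and DESeq2 called 159 higher (1.6%) and 72 lower (0.723%). The counts fell to 32 and 2 when immunized mouse 2 was left out, to 97 and 29 for immunized mouse 1, and to 47 and 9 and to 23 and 6 for unimmunized mice 1 and 2. Against Ly6c2 monocyte-like cells, 171 of 11274 genes were higher (1.52%) and 70 lower (0.621%), and with the block 931 (8.26%) and 621 (5.51%). At an unadjusted p under 0.05 there were 1763 (15.6%), and DESeq2 called 192 higher (1.97%) and 79 lower (0.811%). The counts fell to 51 and 2 when immunized mouse 2 was left out, to 150 and 36 for immunized mouse 1, and to 99 and 31 and to 86 and 27 for unimmunized mice 1 and 2. All 3 comparisons use the same gated cells, so their calls are given side by side and not as repeats of each other.

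Slc7a11, the cystine transporter that feeds glutathione synthesis, stood at 173 and 249 CPM in gated cells, 10.4 and 34.0 in C1q macrophage-like cells and 4.35 and 10.9 in Ly6c2 monocyte-like cells. It rose by 3.30 ± 0.50 (SE, edgeR adjusted p = 0.0173) and 4.87 ± 0.55 (0.00426) on the log2 scale against these classes. Against other cells its log2 difference was 3.58 ± 0.46 (edgeR adjusted p = 0.0545, and under 0.05 with the mouse as a block). Cd14, the co-receptor for lipopolysaccharide, stood at 140 and 320 CPM in gated cells, 49.4 and 50.2 in C1q macrophage-like cells and 20.8 and 35.8 in Ly6c2 monocyte-like cells, with log2 differences of 2.36 ± 0.37 (0.0189) and 3.16 ± 0.38 (0.00530). Clec4d, the partner lectin of Mincle, stood at 119 and 233 CPM against 18.2 and 41.0 in C1q macrophage-like cells (2.70 ± 0.44, 0.0210). All 3 genes were higher in gated cells of both mice, and highest in those of immunized mouse 2. H2-M2, a nonclassical MHC class I gene, stood at 263 and 77.5 CPM in gated cells, 88.9 and 109 in C1q macrophage-like cells and 8.23 and 14.2 in Ly6c2 monocyte-like cells. It rose against the latter (log2 difference 3.72 ± 0.73, edgeR adjusted p = 0.0296), with no shared direction in the 2 mice against the former.

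Genes lower than in C1q macrophage-like cells included Clec10a, a galactose-type lectin receptor, at 26.9 and 18.0 CPM against 174 and 82.8 (log2 difference -2.65 ± 0.48, edgeR adjusted p = 0.0306). Hfe, a regulator of iron uptake, stood at 11.9 and 16.4 against 61.9 and 51.7 (-1.77 ± 0.26, 0.0137). Against Ly6c2 monocyte-like cells, Rgs2, a brake on G-protein signalling, stood at 44.8 and 56.8 CPM against 313 and 179 (-2.14 ± 0.34, 0.0133), and Ifit3, an interferon-induced antiviral gene, at 35.8 and 13.6 against 106 and 54.9 (-2.19 ± 0.47, 0.0405). The monocyte genes Plac8 (-1.03 ± 0.16, 0.0129) and Treml4 (-1.40 ± 0.21, 0.0119) were also lower than in Ly6c2 monocyte-like cells. Of 9 classical and 10 nonclassical markers tested there, 1 each was lower and none higher (4 and 6 lower with the block). Of all genes 0.621% were lower there, and 5.51% with the block. That class was chosen by Ly6c2 and Ccr2 messages, which favours higher classical monocyte markers in it. Against C1q macrophage-like cells 1 of 11 classical markers was lower, and with the block 9 were higher and 1 lower. Of all genes 0.355% were lower there, and with the block 7.16% were higher and 4.3% lower. None of 10 nonclassical markers was called there (2 higher and 1 lower with the block). Against other cells none of 12 and 10 was called, with list medians of -0.22 and -1.30. With the block 3 and 0 of these were higher and 2 and 6 lower (5.08% and 5.61% of all genes).

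Gene lists for pathways are given as counts, and for part of the lists with the list median. The medians of all genes tested were -0.11, -0.01 and 0.00 on the log2 scale against other, C1q macrophage-like and Ly6c2 monocyte-like cells. Of all genes, 0.149%, 0.967% and 1.52% were called higher and 0.0235%, 0.355% and 0.621% lower in these 3 comparisons, and with the block 5.08%, 7.16% and 8.26% higher and 5.61%, 4.3% and 5.51% lower. Lists are small, so that a call of 1 gene says nothing of its list. Among regulators and targets of NF-kappaB, the transcription factor that drives inflammatory genes, 2, 9 and 8 of 30 genes tested rose against these 3 classes and none fell, with list medians of 0.79, 0.88 and 0.79. With the mouse as a block 23, 25 and 20 rose. Sod2, the mitochondrial superoxide dismutase, stood at 1409 and 1524 CPM in gated cells and at 300 and 406 in C1q macrophage-like cells (2.10 ± 0.24, edgeR adjusted p = 0.00569). Tnip3, an inhibitor of NF-kappaB signalling, stood at 101 and 97.5 against 10.9 and 15.4 (2.94 ± 0.29, 0.00349).

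Inflammatory cytokines rose against the myeloid classes in 3 and 4 of 21 tested, and in 0 of 22 against other cells (10, 12 and 11 with the block, in that order, where 1 fell in each). Tnf stood at 185 and 62.1 CPM in gated cells and 15 and 14.9 in C1q macrophage-like cells (2.84 ± 0.44, edgeR adjusted p = 0.0195). Il1b stood at 1044 and 1395 against 242 and 413 (1.95 ± 0.37, 0.0358), and Il12a, a subunit of interleukin-12, at 20.9 and 12.1 against 1.14 and 0.971 (3.83 ± 0.50, 0.00863). Among gated cells Tnf was the higher in immunized mouse 1 and Il1b in immunized mouse 2. Of chemokines, 0 of 19, 1 of 17 and 4 of 17 rose and 0, 1 and 0 fell, and with the block 8, 8 and 13 rose and 4, 4 and 0 fell. Cxcl2, which draws neutrophils, stood at 179 and 38.3 CPM against 1.71 and 1.09 in Ly6c2 monocyte-like cells (6.04 ± 0.74, 0.00530). Ccl3 (3.55 ± 0.64, 0.0215) and Ccl4 (2.66 ± 0.59, 0.0477), which draw monocytes and T cells, were also higher than in Ly6c2 monocyte-like cells. Ccl5, the chemokine with the most UMIs in gated cells, stood at 2098 and 6031 CPM against 991 and 1293 in other cells (1.87 ± 0.48, edgeR adjusted p = 0.162, and under 0.05 with the block). Pf4 fell against C1q macrophage-like cells, at 0 and 1.36 CPM against 28.6 and 9.43 (edgeR adjusted p = 0.0444).

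Acute phase and secreted defence proteins rose in 2 of 15, 7 of 14 and 5 of 14 tested and none fell, with list medians of 1.57, 2.00 and 1.52 (11, 10 and 10 rose with the block). The part of the neutrophil markers described above in these values was not tested. Slpi, a protease inhibitor, stood at 86.5 and 66.7 CPM against 9.1 and 8.0 in C1q macrophage-like cells (3.16 ± 0.39, edgeR adjusted p = 0.00792). Hp, haptoglobin, stood at 451 and 283 against 74.1 and 42.3 in C1q macrophage-like cells (2.67 ± 0.44, 0.0210) but at 535 and 239 in Ly6c2 monocyte-like cells, where its log2 difference was -0.08 ± 0.42 (0.982; 0.06 with the block). Of the prostaglandin and leukotriene list, Ptges, the synthase that acts after cyclooxygenase, stood at 5.97 and 25.8 CPM against 0.813 and 0.879 in C1q macrophage-like cells (4.62 ± 0.55, 0.00858), and the value of immunized mouse 1 rests on 2 UMIs. This list had 1 gene higher and 1 lower of 16 against C1q macrophage-like cells, 1 and 0 of 16 against Ly6c2 monocyte-like cells and 0 and 0 of 17 against other cells (3 and 3, 5 and 3, and 3 and 2 with the block). Of the arginine and nitric oxide list, 0 of 19, 1 of 18 and 2 of 18 rose (5, 5 and 8 with the block, where 0, 0 and 1 fell). Gch1, which makes the cofactor of nitric oxide synthase, stood at 95.5 and 57.3 CPM against 30.2 and 26.5 in C1q macrophage-like cells (1.33 ± 0.23, 0.0264).

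Glycolysis genes and targets of the hypoxia factor were mostly higher in gated cells, and the calls depended on the test. Of 29 tested, none rose or fell against any of the 3 classes in the edgeR test without the block. At an unadjusted p under 0.05, 16, 20 and 19 were higher and 2, 1 and 1 lower. DESeq2 called 3, 3 and 2 higher, and 22, 24 and 24 rose with the block (0, 1 and 1 fell). The list medians were 1.29, 1.23 and 1.29. Ldha, lactate dehydrogenase, stood at 394 and 1020 CPM in gated cells of immunized mice 1 and 2 and at 192 and 381 in other cells, and Gapdh, a glycolytic enzyme, at 1480.1 and 3976 against 987 and 1858. Slc2a1, the glucose transporter, stood at 74.6 and 172 against 16.6 and 45.8. Vegfa, a hypoxia target, stood at 82.2 CPM in gated cells of immunized mouse 2 against 8.58 in its other cells, and at 2.98 (1 UMI) against 1.58 in immunized mouse 1. Each was higher in gated than in other cells within both mice, but the mice differed in level, so that for Gapdh and Vegfa other cells of immunized mouse 2 lay above gated cells of immunized mouse 1. Ldha, Slc2a1 and Vegfa were named after their values were seen. TCA cycle and fatty acid oxidation genes moved little, with 0 of 28 called in all 3 comparisons (0 higher and 2 lower with the block in each) and list medians of 0.10, 0.04 and 0.07. In these comparisons 4, 2 and 5 had an unadjusted p under 0.05, and DESeq2 called none.

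Targets of Nrf2, the factor that answers oxidative stress, rose in 0 of 22, 3 of 21 and 6 of 21 (11, 11 and 12 with the block, where 1, 0 and 1 fell). Prdx1, a peroxiredoxin, stood at 2217 and 1624 CPM against 848 and 935 in C1q macrophage-like cells (1.14 ± 0.19, edgeR adjusted p = 0.0210), and Txnrd1, thioredoxin reductase, at 128 and 91.1 against 37.4 and 41.9 (1.43 ± 0.21, 0.0137). Of metal handling genes, 0 of 15, 1 of 13 and 2 of 13 rose (6, 4 and 10 with the block). Fth1, the ferritin heavy chain, stood in gated cells at 21125 and 27356 CPM, against 10715 and 10638 in C1q macrophage-like cells (1.23 ± 0.22, 0.0278). Ctsd, a lysosomal protease, stood at 570 and 571 CPM against 283 and 317 (0.97 ± 0.20, 0.0489). Fth1, Ctsd and Prdx1 were higher in gated cells of both mice.

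Interferon-gamma induced genes rose in 0, 1 and 1 of 27 (14, 11 and 13 with the block, where 1 fell in each), with list medians of 0.70, 0.44 and 0.47. Cd274, which encodes the ligand PD-L1, stood at 272 and 277 CPM against 82.4 and 136 in C1q macrophage-like cells (1.37 ± 0.27, edgeR adjusted p = 0.0444). Type I interferon induced genes went the other way against Ly6c2 monocyte-like cells, with 0 higher and 2 lower of 23 (0 and 15 with the block) and a list median of -0.85. They had 0 and 0 called against other cells (1 and 3 with the block) and 1 and 0 against C1q macrophage-like cells (3 and 2). Ifit3b stood at 0 and 1.85 CPM against 26.6 and 11.7 in Ly6c2 monocyte-like cells (edgeR adjusted p = 0.0247).

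Genes of alternative activation fell in 3 of 16 against C1q macrophage-like cells and none rose (3 higher and 5 lower with the block). Mrc1, the mannose receptor, stood at 0 and 6.04 CPM against 52.8 and 29.6, and Pparg at 0 and 0.370 against 9.92 and 4.58 (edgeR adjusted p = 0.0301 and 0.0444). The list median was -2.51 in the fit, but the median of the raw ratios was -2.71 in immunized mouse 1 and 0.09 in immunized mouse 2, so the sign rests on immunized mouse 1 with its few UMIs. Against Ly6c2 monocyte-like cells 2 of 16 rose and none fell (3 and 4 with the block), with Stab1, a scavenger receptor, at 14.9 and 19.5 CPM against 0.466 and 2.12 (3.81 ± 0.53, 0.00783). Against other cells 0 of 17 were called (2 higher and 6 lower with the block). The list medians were -1.53 against other and -0.10 against Ly6c2 monocyte-like cells. Macrophage markers higher than in Ly6c2 monocyte-like cells were Mertk, a receptor for dead cells (2.84 ± 0.52, edgeR adjusted p = 0.0226), Gpnmb (3.70 ± 0.68, 0.0234) and Cd63 (3.15 ± 0.58, 0.0239), that is 3 of 13 tested (6 with the block). Against C1q macrophage-like cells none of 13 macrophage markers passed the edgeR test, with 1 higher and 2 lower at an unadjusted p under 0.05, 1 lower in DESeq2 and 1 higher and 3 lower with the block. Against other cells none of 16 passed, with 3 higher at an unadjusted p under 0.05, none in DESeq2 and 6 with the block. Mertk stood at 2.98 and 27.6 CPM in gated cells against 1.63 and 4.75 in Ly6c2 monocyte-like cells. The value of gated cells in immunized mouse 1 is 1 UMI.

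Tissue remodelling genes and the plasminogen system rose in 1 of 19, 1 of 18 and 4 of 18 against other, C1q macrophage-like and Ly6c2 monocyte-like cells and none fell (8, 13 and 10 higher and 1, 2 and 0 lower with the block), with list medians of 0.94, 1.57 and 1.11. F10 belongs to this list, and Mmp12, macrophage elastase, stood at 5.97 and 33.9 CPM against 0.932 and 2.18 in Ly6c2 monocyte-like cells (4.11 ± 0.70, edgeR adjusted p = 0.0179). Phagocyte oxidase and granule enzymes, to which Ctsd belongs, rose in 0, 1 and 2 of 16 (11, 7 and 7 with the block, where 0, 1 and 1 fell). Activins, TGF-beta and their inhibitors rose in 0 of 17, 1 of 15 and 0 of 15 and none fell (2, 2 and 4 higher and 0, 1 and 0 lower with the block).

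The 2 immunized mice differed in several lists. As medians of the raw log2 CPM ratios against other cells in immunized mice 1 and 2, NF-kappaB regulators and targets stood at 1.09 and 0.48, cytokines at 1.07 and 0.65, interferon-gamma induced genes at 0.71 and 0.35 and acute phase proteins at 1.96 and 1.23, all higher in immunized mouse 1. Nrf2 targets stood at 0.20 and 0.58 and glycolysis and hypoxia targets at 0.82 and 1.23, higher in immunized mouse 2. Tissue remodelling genes stood at 0.86 and 0.88 against other but at 0.39 and 1.16 against C1q macrophage-like cells. Chemokines (-0.36 and 0.35) and type I interferon induced genes (0.03 and -0.53) had opposite signs against other cells, and the prostaglandin list (-0.55 and 0.42) had them against Ly6c2 monocyte-like cells.

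Several lists had no call against other cells in the edgeR test. At an unadjusted p under 0.05, which 17% of all genes tested passed in either direction, the genes higher and lower numbered 10 and 0 of 22 cytokines, 7 and 5 of 19 chemokines, 11 and 1 of 22 Nrf2 targets, 9 and 1 of 27 interferon-gamma induced genes and 1 and 7 of 23 type I interferon induced genes. They numbered 7 and 0 of 16 phagocyte oxidase and granule enzymes, 5 and 0 of 15 metal handling genes, 2 and 6 of 17 alternative activation genes, 1 and 4 of 20 cell division genes, 5 and 1 of 19 in the arginine list, 4 and 4 of 17 in the prostaglandin list and 3 and 0 of 17 activins, the last near the share of all genes. DESeq2, which called 2.05% of all genes higher and 1.17% lower, called 5 cytokines, 5 chemokines, 6 Nrf2 targets, 4 interferon-gamma induced genes and 3 phagocyte enzymes higher against other cells. It called 2 genes each of the arginine, prostaglandin, activin and alternative activation lists and 1 each of the metal handling and cell division lists higher. It called 2 alternative activation genes, 1 chemokine and 1 cell division gene lower, and no type I interferon induced gene.

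Immediate early genes were listed together with other genes known to be turned on when tissue is dissociated. Of 24 genes, 1, 4 and 4 rose and 0, 0 and 1 fell, with list medians of 0.62, 0.78 and 0.82. With the block 13 rose in each comparison, and 3, 2 and 2 fell. Jun belongs to this list. Hspa8, the member with the most UMIs, stood at 1889 and 1628 CPM in gated cells and at 3202 and 3201 in Ly6c2 monocyte-like cells (-0.83 ± 0.18, edgeR adjusted p = 0.0448). Handling of the tissue cannot be told apart from these values, since all cells of a mouse were handled together, and its part was not tested. Of cell division genes, 0 of 20, 0 of 18 and 1 of 18 rose, the last being Mki67 at 47.7 and 36.6 CPM against 6.37 and 13 in Ly6c2 monocyte-like cells (2.07 ± 0.36, 0.0193), and none fell (1, 1 and 1 higher and 3, 0 and 0 lower with the block). The list medians were -1.20, -1.05 and -0.06. The fitted difference was positive for 3, 3 and 7 members, so most members did not share the direction of Mki67.

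Within immunized mouse 2, cells of at least 5000 UMIs were ordered by the number of gate genes detected, from 2048 cells with none to 27 with all 6. The cells are chosen by the readout, so these values are a description with no test, and median UMIs per cell also went from 12550.5 to 19335. Clec4e went from 28.3 CPM at none over 284 at 2 and 499 at 3 gate genes to 1656 at 6. Slc7a11 went from 17.4 to 597, Cd14 from 27.5 to 725 and Il1b from 330 to 2054. At the threshold, Slc7a11 stood at 55.4 CPM with 2 and 152 with 3 gate genes, and Il1b at 623 and 1188. In immunized mouse 2 each of these genes was higher with each further gate gene, below and above the gate, and for Slc7a11, Cd14 and Il1b the step from 2 to 3 was the largest as a ratio. Cd14 stood at 80.8 and 205 CPM there. Ccr2, the monocyte chemokine receptor, went the other way, from 756 to 193 CPM, and Ifit3 from 39.7 to 9.39. C1qa went from 1118 to 370, whereas Ly6c2 stood at 466 and 473 at the ends. H2-Aa, an MHC class II gene, stayed between 7379 and 8355. S100a8 stood at 57.2 CPM at none and below 91 at 1 to 5 gate genes but at 1677 at 6, where 882 of its 893 UMIs were in 1 cell. In immunized mouse 1, with 2282, 824, 140 and 19 such cells at 0, 1, 2 and 3 gate genes and 3 beyond, Clec4e went over 42.8, 110, 284 and 1365 CPM and Il1b over 192, 274, 409 and 611. Slc7a11 stood at 9.57, 8.12, 25.8 and 129 CPM, lower at 1 than at 0. Ccr2 stood at 839, 885, 749 and 403, and C1qa at 376, 415, 590 and 479, so that C1qa was higher at 2 than at 0 or 1 gate genes and lower again at 3. Ifit3 stood at 51.8, 61.1, 73.2 and 41.7 CPM, and so was also highest at 2 among these.

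**Figure D4:**
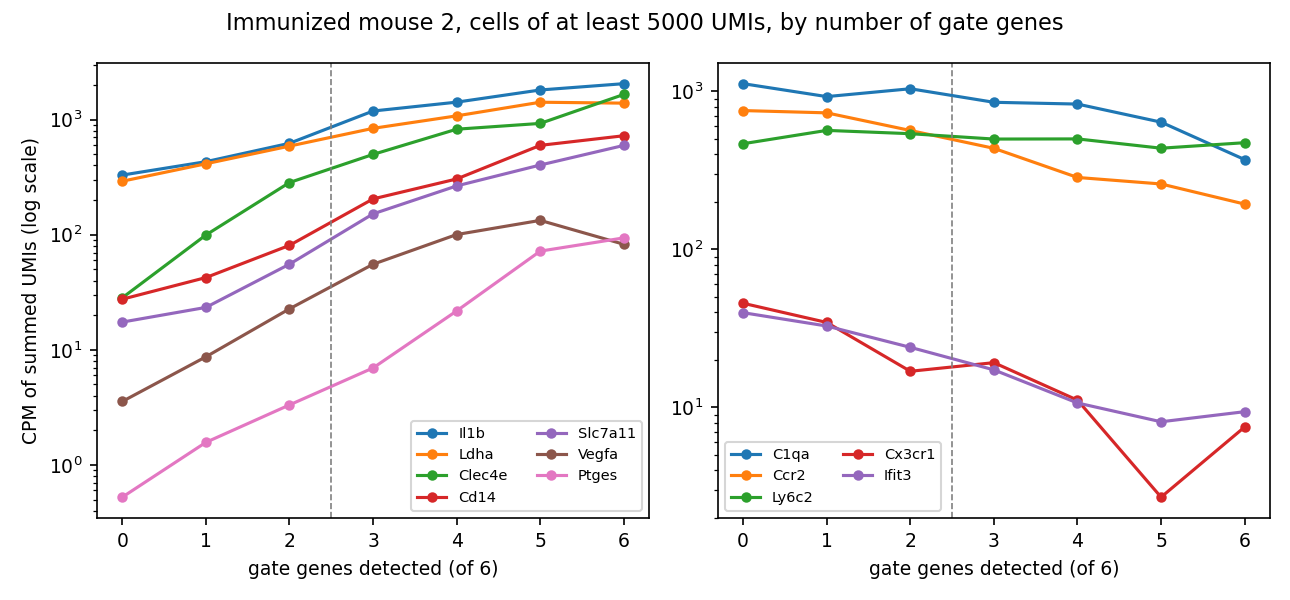
Summed CPM (log axis) of named genes in cells of immunized mouse 2 with at least 5000 UMIs, by the number of gate genes detected; the dashed line marks the gate. Clec4e and Slc7a11 are higher in each step to the right, and Ccr2 is lower in each.

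Gated cells of immunized mouse 2 with a Nos2 UMI (264) and without (227) differed in level for the same genes, at median depths of 16030.5 and 15257 UMIs. Slc7a11 stood at 327 and 154 CPM, Cd14 at 446 and 167, Vegfa at 124 and 31.2, Ptges at 40.8 and 7.39 and Ldha at 1282 and 700. Ccr2 stood at 279 and 443. In immunized mouse 1, the 6 gated cells with a Nos2 UMI and the 18 without went the other way for several of them, with Slc7a11 at 128 and 189 CPM, Cd14 at 105 and 152, Ldha at 373 and 401 and Ccr2 at 419 and 329. Vegfa (11.7 and 0 CPM) and Ptges (11.7 and 4.01) went the same way as in immunized mouse 2, each on 1 UMI per side at most. Slc7a11, Cd14, Ldha and Ccr2 thus differed in opposite directions in the 2 mice, and the values carry no test. The 3 gated cells of unimmunized mouse 1 all met the Ly6c2 definition and none the C1q definition. Of their 15 Ptgs2 UMIs 14 were in 1 cell. With 3 and 0 gated cells, gated cells of immunized and unimmunized mice could not be tested against each other.

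Surface protein was read from 6 antibodies as the centred log ratio of their counts, averaged over cells. With 2 mice an exact sign-flip test cannot go below p = 0.5, so each mouse's difference between gated cells and a comparator is given. Ly-6c protein of gated cells lay 0.831 and 0.358 above C1q macrophage-like cells and 0.735 and 0.754 below Ly6c2 monocyte-like cells in immunized mice 1 and 2 (exact p = 0.5 for each). CD11c lay 0.654 and 0.898 above Ly6c2 monocyte-like cells and 0.245 and 0.156 below C1q macrophage-like cells. For both proteins gated cells lay between the classes in both mice. The classes were chosen by C1q and Ly6c2 messages, so the order of Ly-6c protein is not independent of that choice. As log2 of mean counts, however, CD11c lay 0.0175 above C1q macrophage-like cells. Against other cells, Ly-6c differed by 0.545 and 0.0633, F4/80 by 0.102 and 0.0790, and CD169 by -0.423 and -0.249. CD11c differed by -0.0841 and 0.303 and CD68 by -0.138 and 0.000219, with opposite signs in the 2 mice. Ly-6g, the neutrophil protein, had a median of 1 count per gated cell in both mice, as in every comparator.

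The centred log ratio of CD169 was lower in gated than in other cells of both mice, as was its mean count, with a log2 difference of -0.41 averaged over the mice, whereas its median counts were 5 and 3 in gated and 4 and 3 in other cells. The message Siglec1 stood at 23.9 and 51.6 CPM in gated cells and at 13 and 23.5 in other cells. The log2 difference was 1.31 ± 0.37 (edgeR adjusted p = 0.182, and under 0.05 with the mouse as a block). The messages of Itgax for CD11c (80.6 and 103 CPM against 87.3 and 133 in other cells), Cd68 (275 and 267 against 206 and 268) and Adgre1 for F4/80 (65.7 and 98.2 against 97.9 and 101) gave adjusted p-values of 0.773, 0.694 and 0.993 and were not called with the block.

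**Figure D5:**
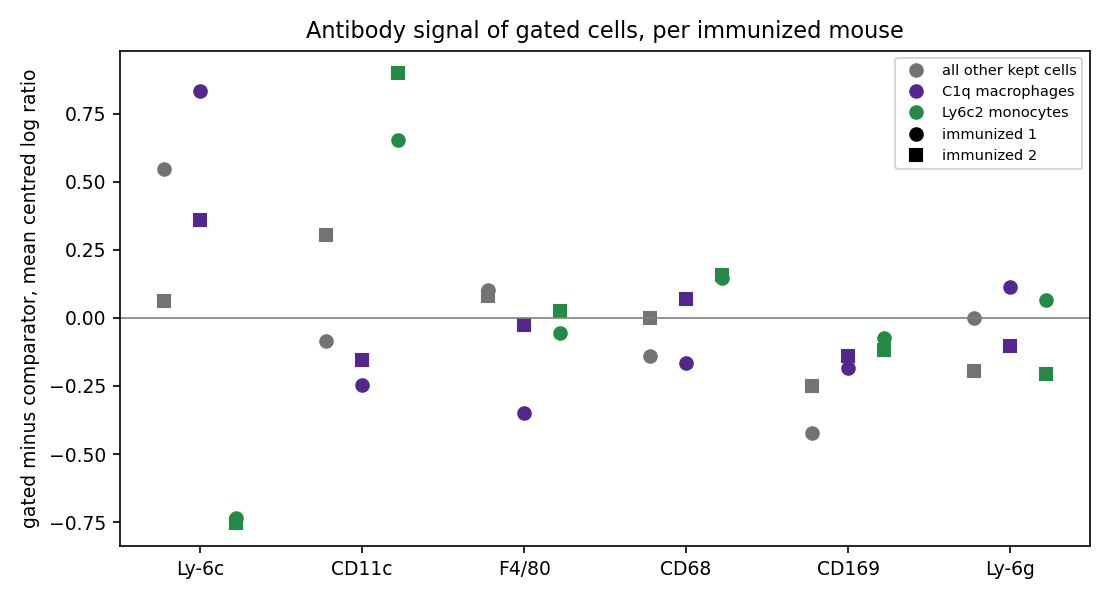
Difference in mean centred log ratio between gated cells and other, C1q macrophage-like and Ly6c2 monocyte-like cells for the 6 antibodies; each symbol is 1 immunized mouse. Ly-6c is above C1q macrophage-like and below Ly6c2 monocyte-like cells in both mice, and CD11c is the reverse.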

How the data were processed

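mRNA, hashtag and antibody libraries of 2 captures were deposited as count matrices. Per the submitters' processing notes, reads were processed with Cell Ranger 4.0.0 on mm10; the sources used here do not say whether aggregation equalized depth. Per the study's methods, hashtag and antibody reads were counted with CITE-seq-Count, version not given. The deposited values are raw counts of UMIs over 32287 features.

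Of 18662 barcodes, 1242 were left out because their sequence occurred in both captures, 1420 because mitochondrial genes exceeded 25% of UMIs, and 3861 because no hashtag held at least 80% of hashtag UMIs with at least 10. Hashtags 1 and 2 marked unimmunized and hashtags 3 and 4 immunized mice. Doublets were removed only through hashtags and shared barcodes, so doublets within a mouse remain. B cells had at least 2 Cd79a UMIs and 1 Ms4a1 UMI, and Ly6c2 monocyte-like cells at least 3 Ly6c2 UMIs and 1 Ccr2 UMI.

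UMIs were summed per mouse and class, in libraries of at least 10 cells, and tested with edgeR 4.0.16 (R 4.3.3; TMM, filterByExpr, glmQLFit and glmQLFTest), with all mice in the fit. The 6 gate genes were left out, as were genes that define the comparator; C1qa, C1qb and C1qc were also left out against Ly6c2 monocyte-like cells, beyond the design first written. DESeq2 1.42.0 was an alternative. Libraries of 1 mouse share its hashtag and hence the animal, which pairs them. No source used here gives more than 2 mice per group, and p-values rest on these 4 animals. The tests were checked on simulated data, in which large changes were mostly recovered and small ones mostly missed; with the mouse as a block more changed genes were recovered, but more unchanged genes were also called. Levels of 3′ UMI counts are not scaled by gene length, since each molecule gives 1 count. For antibodies, the centred log ratio of the counts was taken over the 6 antibodies in each cell.

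Members, lists and tests were chosen with earlier results of these data known. The text names the gate genes; the genes with the largest differences past 0.05 whose mean log2 CPM was 5 or more, with 1 direction in both immunized mice; up to 4 members past 0.05 and the member with the most UMIs of each list; and genes of the antibody targets. Other settings are given in the closing section.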

Additional observations from a re-analysis of the deposited data

Results flagged for a closer look

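Barcodes that the rule left out also held the gate genes, more often than the 3 of 3365 kept barcodes of unimmunized mice (0.0892%, 95% exact binomial interval 0.0184 to 0.260). Of kept barcodes of immunized mice 515 of 8774 (5.87%) were in the gate, and of all kept barcodes 518 of 12139 (4.27%). Of the barcodes that did not meet the hashtag rule, 367 of 3861 had at least 3 gate genes (9.51%, 8.6 to 10.5). The hashtag with the most UMIs was of an immunized mouse in 219 of these 367 and of an unimmunized mouse in 148, its median share of hashtag UMIs was 56.4%, and the median depth was 26133 UMIs. They cannot be given to a mouse, and whether they hold more than 1 cell was not tested. Of the barcodes whose sequence occurred in both captures, 98 of 1242 had at least 3 gate genes (7.89%, 6.45 to 9.53). Of those with over 25% mitochondrial UMIs, 23 of 1420 did (1.62%, 1.03 to 2.42), below the share of all kept barcodes. No group held the 4 samples that a test for outlying samples needs.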

How the results depend on the processing

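Counts of genes are given as higher and lower. With a gate of at least 4 genes immunized mouse 1 held 3 gated cells, so only immunized mouse 2 gave a gated library there. Against other cells (19 and 3), there were 648 and 715 with the mouse as replicate block, 618 and 978 without filtering of low counts, 216 and 123 in DESeq2, 108 and 34 without cells with markers of another lineage, 12 and 1 in cells of at least 5000 UMIs, 10 and 0 at a hashtag share of at least 95%, 6 and 0 with a gate of at least 2 genes, and 0 and 0 with a gate of at least 4 genes (2719 genes at an unadjusted p under 0.05) or in libraries of the immunized mice only (1696); leaving out 1 mouse gave 0 to 458 and 0 to 427. Against C1q macrophage-like cells (109 and 40), the block gave 807 and 485, no filter 539 and 370, immunized mice only 48 and 9, a gate of at least 2 genes 38 and 4, and a hashtag share of 95% 53 and 11; 69 were higher without TMM, 72 lower with DESeq2 and 76 lower without cells with markers of another lineage, and leaving out 1 mouse gave 23 to 97 and 2 to 29. Against Ly6c2 monocyte-like cells (171 and 70), the block gave 931 and 621, no filter 646 and 439, immunized mice only 99 and 31, a gate of at least 2 genes 42 and 2, and a hashtag share of 95% 112 and 28, and leaving out 1 mouse gave 51 to 150 and 2 to 36. Combinations with the block were chosen after seeing the data: at least 5000 UMIs gave 615 and 569, 798 and 652, and 939 and 739 against the 3 classes, leaving out cells with markers of another lineage 589 and 451, 726 and 506, and 868 and 624, and immunized mice only 665 and 562, 727 and 467, and 848 and 611. Of 112 named differences past 0.05 none changed direction in the alternatives run, and of 103 not past it 16 did in at least 1. The causes were not tested.

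For genes left out of the gate in turn, the block gave log2 differences of 5.04 (Nos2), 3.10 (Ptgs2), 3.83 (Inhba) and 5.44 (Slc7a2), and Saa3 was at 2.95 with at least 2 of the other 5 genes. Leaving out 1 mouse gave 3.84 to 5.37 for Nos2, 2.85 to 3.55 for Acod1, 2.82 to 3.28 for Saa3, 2.06 to 3.41 for Ptgs2, 3.79 to 4.18 for Inhba and 5.19 to 6.55 for Slc7a2. The difference in share of gated cells between immunized and unimmunized mice kept its direction in every alternative run: 12.9 points with a gate of at least 2 genes, 2.37 with at least 4, 1.44 after thinning, and 0.539 to 10.3 when 1 mouse was left out.

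Antibody differences changed sign as follows. As log2 of mean counts, they were 0.0811 for CD68 and 0.899 for Ly-6g against other cells, 0.0175 for CD11c against C1q macrophage-like cells, and 0.288 for CD169, 0.471 for F4/80 and 1.24 for Ly-6g against Ly6c2 monocyte-like cells. In cells of at least 5000 UMIs they were 0.0129 and 0.0424 for CD68 against other and C1q macrophage-like cells, -0.0459 for Ly-6g against C1q macrophage-like cells and 0.00825 for F4/80 against Ly6c2 monocyte-like cells. With a gate of at least 4 genes, where only immunized mouse 2 had enough cells, they were 0.0762 for CD68 and -0.0428 for Ly-6c against other cells, 0.144 for CD68 and -0.157 for Ly-6g against C1q macrophage-like cells and 0.0274 for F4/80 against Ly6c2 monocyte-like cells. With 1 mouse left out they spanned -0.138 to 0.000219 (CD68) and -0.0841 to 0.303 (CD11c) against other cells, -0.165 to 0.0704 (CD68) and -0.103 to 0.114 (Ly-6g) against C1q macrophage-like cells, and -0.0552 to 0.0235 (F4/80) and -0.208 to 0.0643 (Ly-6g) against Ly6c2 monocyte-like cells.

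The number of mice limits every test, and the 24 gated cells of immunized mouse 1 limit the precision of its values. When an immunized mouse is left out, the lone gated library is assumed to vary like the other groups. Alternatives for gated cells of immunized against unimmunized mice were not run, since no test was possible.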
